A study of Mus musculus with 12 samples.

Results

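The genes described here are 10 genes that fat cells use heavily: Adipoq, Cfd, Retn, Lep, Plin1, Plin4, Cidec, Fabp4, Lpl and Pnpla2. They were chosen by name, as every non-control probe whose gene symbol is one of the 10, and were read tumour by tumour as a measure of fat in the tissue piece. They make up 10 of 37008 genes on the array and 20 of its 56605 probes. All 10 passed the filter on dim probes, as did 27352 genes in all.

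The samples were orthotopic KP pancreatic tumours grown in female C57BL/6 mice, whose age the labels give as 8 weeks. The FAKi group (6 tumours) came from mice gavaged for 14 days with a drug at 50 mg/kg that blocks focal adhesion kinase, a kinase at cell-matrix contacts. The vehicle group (6 tumours) came from mice given vehicle for 14 days, and both groups carry the same KP tumours in the same strain. The labels name the genotype only as KP and do not say how much tissue around the tumour was taken with it. Total RNA of each whole tissue piece was put on 1 one-colour Agilent array, so the RNA of tumour cells, stroma and any attached fat is pooled in each value.

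White adipocytes store triglyceride in one large droplet coated with perilipins, release it by lipolysis, and take up fatty acids that lipoprotein lipase frees from circulating particles. They also secrete hormones, among them adiponectin, leptin and, in mice, resistin, and the complement protease adipsin. The mouse pancreas lies in visceral fat, and its lobules can hold adipocytes between them. Some of the 10 genes are narrower than others: adiponectin, perilipin 1 and adipsin are classic fat cell products. Fabp4 is also made by endothelial cells and macrophages, Lpl also by macrophages, and Pnpla2 by most tissues.

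The array reads each gene through probes of 60 bases. The probes below are printed to show what the array reads of the hormones, the lipid carrier and the lipase, and each has at least 1 reading frame without a stop over its whole length. Coordinates are mm9, the build that 11 of the 12 file headers name.
Adipoq, chr16:23157576-23157635, + strand: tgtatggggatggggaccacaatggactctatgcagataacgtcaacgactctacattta
Retn, chr8:3657312-3657371, + strand: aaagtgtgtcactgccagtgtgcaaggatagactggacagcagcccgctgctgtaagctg
Lep, chr6:29020910-29020969, + strand: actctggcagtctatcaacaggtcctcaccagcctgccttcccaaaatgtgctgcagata
Fabp4, chr3:10208442-10208501, - strand: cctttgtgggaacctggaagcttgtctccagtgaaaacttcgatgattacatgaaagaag
Lpl, chr8:71425050-71425109, + strand: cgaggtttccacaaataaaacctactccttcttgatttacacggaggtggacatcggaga
The Retn and Lpl probes shown are second probes of their genes. The levels below come from each gene's brightest probe, which for Retn lies at chr8:3659757-3659816 and for Lpl at chr8:71430267-71430326.

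Levels are log2 signal minus the 75th percentile of log2 signal on the same array, so 0 is the level that 75% of spots stay below and a step of 1 is a doubling. The 75th percentile itself lay between 11.82 and 13.88 over the arrays, 66.6% to 76.1% of spots were well above background, and 0 spots were saturated. With 1 array per tumour, a single tumour's level has no error of its own, and neighbours in an order of tumours cannot be tested against each other. In whole pieces, fewer cells of a type and less RNA per cell cannot be told apart. The arrays were on 5 slides. Slide 1 held FAKi 5 with vehicle 3 and vehicle 5, slide 4 held FAKi 1 with vehicle 2 and vehicle 6, and the other slides held 1 group each.

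Of the secreted products, Adipoq (adiponectin), Cfd and Retn separated the pieces most widely, while Lep varied little. Adipoq had the widest spread of all 10 on the levels used here, but its 3 lowest levels were at background. Under normexp background correction, which lifts dim values, Cfd spread more widely than Adipoq. Adipoq had a lowest, median and highest level of -8.60, -5.32 and 0.18 in FAKi tumours, against -6.50, -2.24 and 2.39 in vehicle tumours. The range over the 12 tumours was 10.99. Only 5 of 27242 genes with a value on every array, Adipoq included, had an SD over the 12 tumours of at least its 3.96. The order from high to low was vehicle 4 (2.39), vehicle 3 (2.15), FAKi 3 (0.18), vehicle 5 (-0.90), FAKi 1 (-1.46), FAKi 5 (-2.45), vehicle 6 (-3.58), vehicle 2 (-4.46) and vehicle 1 (-6.50). Last came FAKi 6 (-8.18), FAKi 4 (-8.29) and FAKi 2 (-8.60). In these 3 FAKi tumours the probe was not well above background, so their levels are bounds and have no order among themselves. The number of tumours with a measured Adipoq level was 3 of 6 for FAKi and 6 of 6 for vehicle. Both groups therefore held pieces with ample and pieces with little adiponectin transcript, and their ranges overlapped.

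Cfd, which encodes adipsin, gave nearly the same order from a probe that was well above background on every array (chr10:79355302-79355361). Its lowest, median and highest levels were -4.25, -0.01 and 3.26 in FAKi tumours, against -3.26, 1.88 and 5.25 in vehicle tumours. Vehicle 4 and vehicle 3 were again highest, FAKi 3 was highest of its group at 3.26, and FAKi 4 was lowest. A second Cfd probe followed the first with r = 0.997 over the 12 tumours. The SD of Cfd was 3.25, and 16 genes had a wider one.

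Retn, the hormone resistin, had -5.06, -2.53 and 0.88 as its lowest, median and highest level in FAKi tumours, against -5.24, -0.84 and 2.96 in vehicle tumours. Vehicle 4 was highest and vehicle 1 lowest, and the lower end was shared with FAKi 4 (-5.06) and FAKi 2 (-4.64). Its second probe, printed above, had r = 0.986 with the first. The SD of Retn was 2.79, and 45 genes had a wider one. Resistin is a fat cell hormone in mice, whereas in humans it comes mainly from macrophages.

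Lep, the satiety hormone leptin, did not follow the other secreted products. Its levels were 0.17, 0.41 and 1.09 (lowest, median, highest) in FAKi tumours, against 0.05, 0.26 and 1.65 in vehicle tumours, all above the array's 75th percentile. Vehicle 6 was highest and vehicle 3 lowest, although vehicle 3 was second of 12 in Adipoq. The SD of Lep was 0.50, below the median of 0.59 over all genes, and 35.1% of genes had a smaller one. The order depended on the scaling. With levels taken against each array's median instead, vehicle 3 was not lowest. The SD of Lep was then 0.40, and 14.7% of genes had a smaller one. Lep was thus above the 75th percentile in every piece, also in the 3 where Adipoq was not well above background, and only 1 probe reads it on this array.

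**Figure D1:**
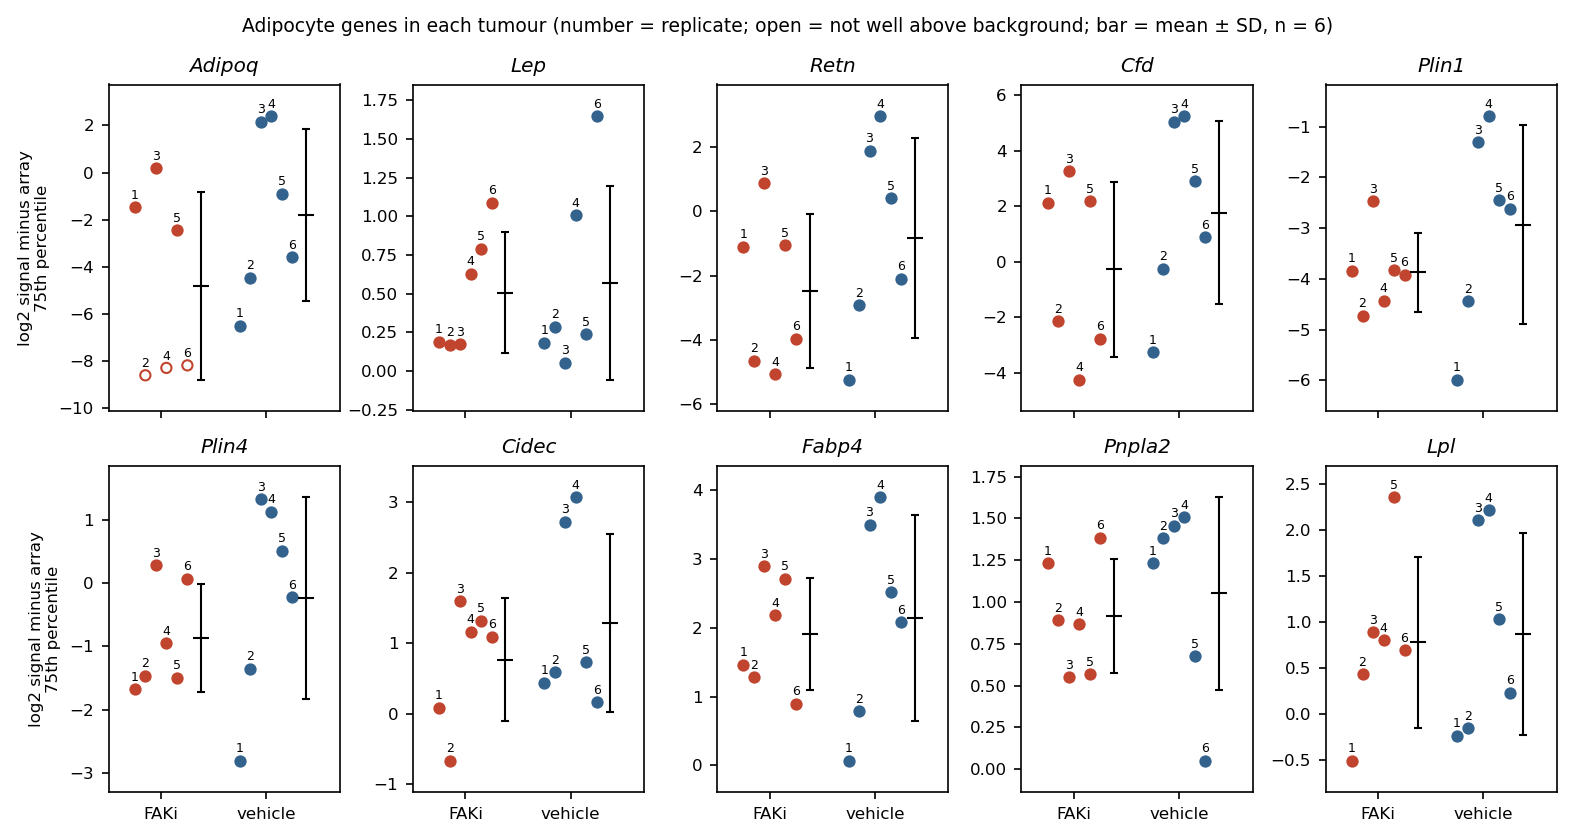
Level of each of the 10 genes in every tumour, as log2 signal minus the array's 75th percentile, with FAKi on the left and vehicle on the right of each panel and a separate vertical scale per gene. Numbers are replicates, open circles are probes not well above background, and bars are mean ± SD (n = 6 per group). Vehicle 3 and vehicle 4 lead in 8 of the 10 genes, and the groups overlap in each panel.

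The genes of the droplet surface spread over the pieces in the same direction but less far. Plin1, the perilipin that guards the fat cell droplet against lipases (chr7:86866112-86866171), was read well above background on all 12 arrays. Its lowest, median and highest levels were -4.72, -3.88 and -2.47 in FAKi tumours, against -5.98, -2.54 and -0.79 in vehicle tumours. Vehicle 4 and vehicle 3 were highest, vehicle 1 was lowest, and 5 of 6 FAKi tumours lay below the vehicle mean. Its SD over the tumours was wider than that of 95.7% of genes. The 2 further Plin1 probes were well above background on 4 and 1 arrays and were not used.

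Plin4, a perilipin of small new droplets (chr17:56240055-56240114), had -1.68, -1.20 and 0.28 (lowest, median, highest) in FAKi tumours and -2.81, 0.14 and 1.32 in vehicle tumours. Cidec, which lets small droplets fuse into one large one (chr6:113374693-113374752), had -0.67, 1.13 and 1.60 in FAKi tumours and 0.16, 0.66 and 3.07 in vehicle tumours. For Cidec, vehicle 4 (3.07) and vehicle 3 (2.73) stood above the other 10 pieces, whose highest was FAKi 3 with 1.60. The SD was 1.26 for Plin4 and 1.07 for Cidec, wider than that of 92.6% and 88.4% of genes.

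Of the genes that carry and cut lipid, Fabp4, the fatty acid carrier of fat cells, macrophages and capillary endothelium, kept a signal well above background in every piece. Its lowest, median and highest levels were 0.90, 1.82 and 2.89 in FAKi tumours, against 0.07, 2.30 and 3.89 in vehicle tumours. Vehicle 4 and vehicle 3 led and vehicle 1 was lowest, and its second probe followed with r = 0.961. FAKi 4, where Adipoq was not well above background, still had a Fabp4 level of 2.19.

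Lpl, the lipase that frees fatty acids from lipoproteins, had -0.51, 0.75 and 2.36 (lowest, median, highest) in FAKi tumours and -0.23, 0.63 and 2.22 in vehicle tumours. It was the member whose highest piece was a FAKi tumour, FAKi 5, with vehicle 4 and vehicle 3 next. The probe printed above followed the brightest Lpl probe with r = 0.926, but the 4 dimmer Lpl probes gave r of -0.27 to 0.80, so the probes of this gene disagree.

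Pnpla2, the lipase that starts triglyceride breakdown and that most tissues use (chr7:148645928-148645987), varied least on the levels used here. Its levels were 0.55, 0.88 and 1.38 (lowest, median, highest) in FAKi tumours and 0.05, 1.31 and 1.51 in vehicle tumours. Vehicle 6 was lowest at 0.05 and the other 11 pieces lay between 0.55 and 1.51. Only 28.4% of genes had a smaller SD than its 0.46. With levels taken against each array's median, the SD of Pnpla2 was 0.51 and that of Lep was 0.40.

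Across the 10 genes, vehicle 4 was the highest tumour for 7 and vehicle 3 for 1, and these tumours were the top pair for 8. FAKi 3 was the highest FAKi tumour for 7 of the 10, and vehicle 1 was lowest of all pieces for 4. The SD over the tumours exceeded that of 90% of genes for 6 of the 10, a count that moved with the scaling. Fabp4 exceeded 90.5% of genes here and 88.3% with the values the authors deposited. Cidec exceeded 88.4% here and 97.0% with normexp background correction.

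Over the 12 tumours, the levels of 8 of the 10 genes correlated positively with each other, some closely and some loosely, whereas Lep and Pnpla2 gave low correlations with them. Of the 45 pairs, 22 had a Pearson correlation past an adjusted p of 0.05 (permutation test, 100000 resamples, two-sided, Benjamini-Hochberg over the 45) and 18 had a Spearman correlation past it. All 22 lay among the 28 pairs without Lep and Pnpla2, whose r ran from 0.52 to 0.98. Of the 17 pairs with Lep or Pnpla2, 0 passed. Their r lay between -0.36 and 0.38, and the smallest adjusted p among them was 0.3535 (permutation test).

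The tightest pairs joined the secreted products. Adipoq and Cfd had r = 0.974 and Spearman rho = 0.944. Adipoq and Retn had r = 0.97 and rho = 0.944, and Retn and Cfd had r = 0.979 and rho = 0.986. The raw permutation p of each r was 1e-05, the smallest that 100000 resamples can give, and the adjusted p was 0.00015. Without the 2 tumours farthest from the median of Adipoq (vehicle 4 and FAKi 2, which is 1 of 3 tumours at background that have no order), r was 0.98 for Adipoq with Cfd and 0.964 for Adipoq with Retn, and both stayed past the threshold. The 3 lowest Adipoq levels were at background, which limits what r can say at that end.

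The droplet genes joined them more loosely. Adipoq had r = 0.834 and rho = 0.888 with Plin1 (adjusted permutation p = 0.00415 for r), and r = 0.769 without the 2 farthest tumours. With Fabp4 it had r = 0.77 and rho = 0.769 (adjusted permutation p = 0.0133 for r), but without the 2 farthest tumours r was 0.703 with an adjusted p of 0.0879 (permutation test). Adipoq had r = 0.67 with Cidec, 0.621 with Plin4 and 0.52 with Lpl. Plin1 and Plin4, the perilipins, had r = 0.921. Lpl was closest to Fabp4 (r = 0.822) and Cidec (r = 0.78). With Lep, Adipoq had r = -0.114 and rho = -0.105, and with Pnpla2 r = 0.0784 and rho = 0.168. With levels taken against each array's median, r with Adipoq was 0.0373 for Lep and 0.2404 for Pnpla2. When the 2 tumours farthest from the median of the first gene of each pair were left out, 9 of the 45 pairs passed in place of 22. With 10 tumours the test is also weaker, and r changed unequally: it was 0.739 in place of 0.846 for Retn with Fabp4, and 0.732 in place of 0.602 for Cfd with Cidec. Pairs share the array and its scaling, and each slide held at most 3 arrays, too few for an r within slides.

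**Figure D2:**
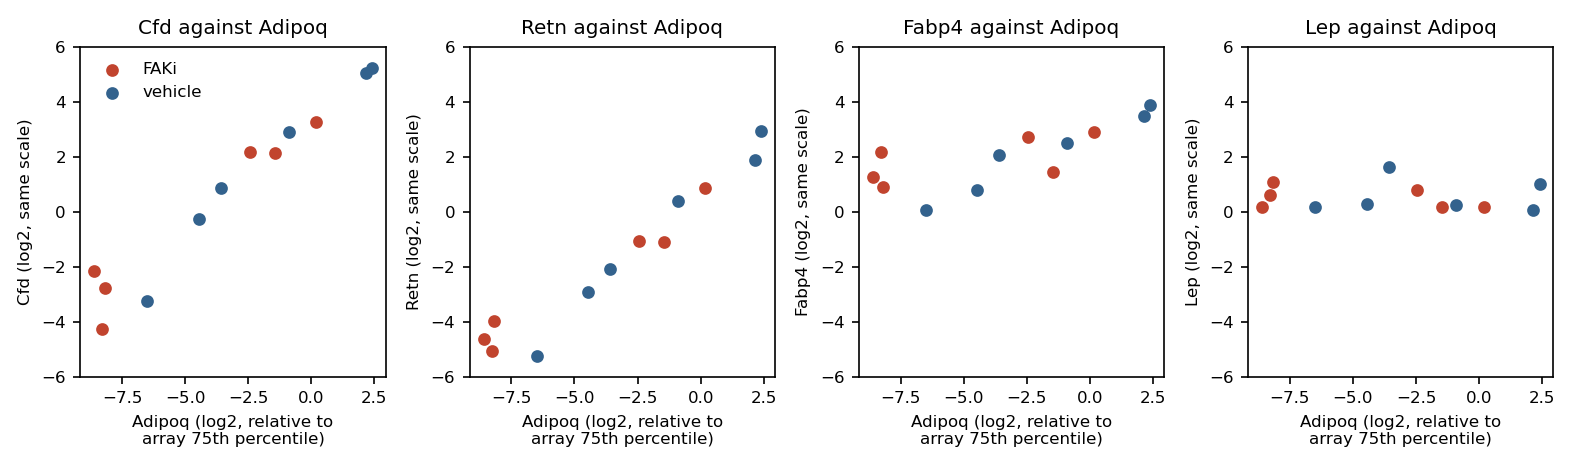
Levels of Cfd, Retn, Fabp4 and Lep (vertical axes, log2 relative to the array's 75th percentile, one common scale) against the level of Adipoq (horizontal axis, same unit) in 12 tumours, FAKi in red and vehicle in blue. Cfd and Retn climb with Adipoq in both groups apart from the lowest points, where the 3 FAKi tumours with Adipoq at background lie beside vehicle 1, Fabp4 climbs less steeply, and Lep stays between 0.05 and 1.65.

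**Figure D3:**
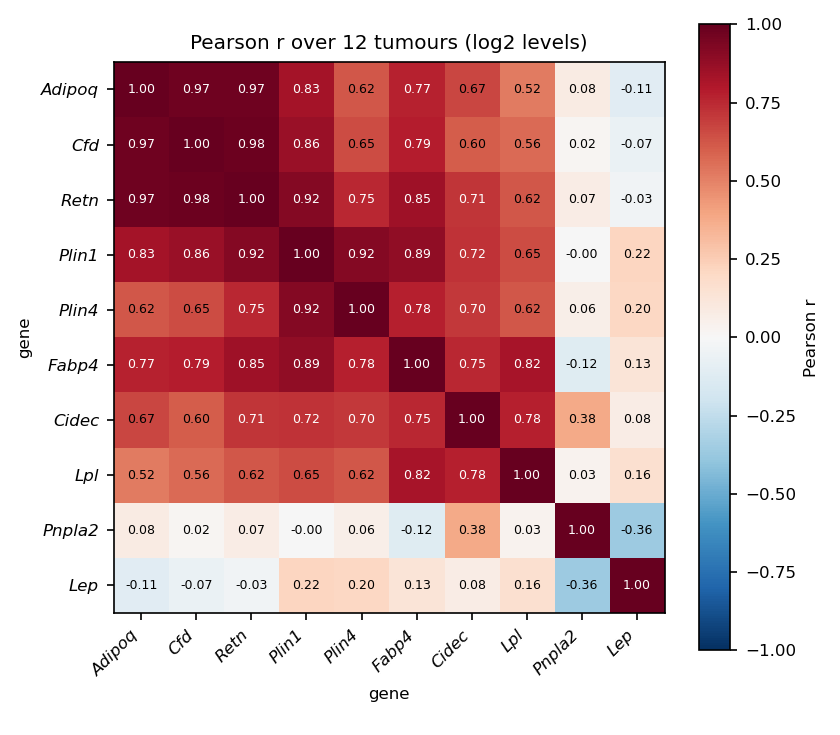
Pearson r of each pair of the 10 genes over 12 tumours, as colour and number. The 8 genes at the upper left correlate with each other at 0.52 to 0.98, and Pnpla2 and Lep, the last 2 rows, lie between -0.36 and 0.38 with each of the others.

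The promoters of Adipoq and Lep are shown because these are secreted products of the same cell type whose levels did not follow each other here. Each is the 250 bases before the start in RefSeq's annotation of GRCm38.p6. Capitals mark the motifs found: CCAAT, the CCAAT box, on either strand in Adipoq, and TTGCGCAA, the palindrome bound by C/EBP factors, in Lep.
Adipoq, chr16:23146286-23146535, + strand: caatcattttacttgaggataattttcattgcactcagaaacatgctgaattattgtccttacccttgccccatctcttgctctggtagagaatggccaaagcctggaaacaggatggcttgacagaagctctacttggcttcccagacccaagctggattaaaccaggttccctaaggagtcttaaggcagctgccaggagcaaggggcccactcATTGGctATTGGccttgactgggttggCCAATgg
Lep, chr6:29059971-29060220, + strand: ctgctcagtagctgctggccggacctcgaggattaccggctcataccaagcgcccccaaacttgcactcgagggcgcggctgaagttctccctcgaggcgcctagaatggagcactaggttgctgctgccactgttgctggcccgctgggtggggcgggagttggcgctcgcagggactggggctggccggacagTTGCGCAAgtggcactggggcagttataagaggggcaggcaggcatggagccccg
The Adipoq window held 3 CCAAT matches, the leftmost bases of which lie 34, 27 and 7 bases before the start, and 33.8% of the 32851 promoters in the table hold at least 1. The Lep window held 1 match to TTGCGCAA, beginning 55 bases before the start, and 0.164% of promoters hold one. The motifs share no overlap. The direct repeat bound by PPAR factors (AGGTCA, any base, then AGGTCA again) was also searched on both strands and had 0 matches among the members' windows, against 0.0335% of all promoters. Windows were found for 8 of the 10 genes. Plin4 also held 1 CCAAT. A match is a description of these letters only.

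The genes whose levels were most like those of Adipoq over the 12 tumours were ranked among 27241 genes, with predicted and unnamed transcripts left out. The first 20 were Cfd, Retn, Mrap, Car3, Mup18, Lrg1, Apoc1, Mup17, Mup19, Orm2, Cyp2f2, Mup5, Cdo1, Cxcl14, Mup1, Mup21, Pth1r, Ccl9, Ly9 and Lyve1, with r between 0.84 and 0.97. Mrap, which helps melanocortin receptors reach the cell surface, had r = 0.956 and rho = 0.986. Car3, a carbonic anhydrase abundant in fat and in skeletal muscle, had r = 0.917. The 20 held 2 of the 10 members, and Plin1 came 22nd. The 6 Mup genes code for major urinary proteins and are near copies of each other, with pairwise r of at least 0.937, so that their probes may read one another's transcripts and the 6 are uncertain as separate genes.

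Of the 20, 18 had vehicle 3 or vehicle 4 as their highest tumour. Over all genes the median r with Adipoq was -0.13, 4.21% had r over 0.5, 49 had r over 0.8 and 9 over 0.9. With each group's mean removed, r of the 20 lay between 0.813 and 0.974, pooled over both groups. Without the 2 farthest tumours it lay between 0.814 and 0.980. The largest spread among the 20 was that of Mup18, which ran from -8.33 to 1.73 in FAKi tumours and from -9.21 to 3.73 in vehicle tumours. The Mup18 probe exceeded background clearly in only 3 FAKi and 5 vehicle tumours, so its low ends and its spread are set by background values. Mup17 exceeded background clearly on 7 arrays, Cyp2f2 and Mup5 on 8 each, Mup21 on 10 and Orm2 on 11. Adipoq itself did so on 9, so background values enter these r. These r values describe genes chosen for being high, and no test is attached to them.

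The question the design puts to these genes is whether they differed between FAKi and vehicle tumours. Each of the 10 had a lower mean in FAKi tumours, but 0 of the 10 passed the test, and for each gene the groups overlapped. Over all genes tested, 0 of 27352 (0%) passed an adjusted p of 0.05 by limma with Benjamini-Hochberg adjustment (smallest value 0.3533). Before adjustment, 0 of the 10 members and 1311 genes in all (4.79%) had p under 0.05. Groups without overlap were found for 0 of the 10 members and for 0.239% of genes.

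Adipoq, Cfd and Retn had the largest differences and the largest errors, while Lep had the smallest difference of the 10. Adipoq averaged -4.80 ± 3.99 in FAKi tumours and -1.82 ± 3.64 in vehicle tumours (SD, n = 6 each). The difference of -2.98 had a limma SE of 1.90 and an adjusted p of 0.9994, and the exact two-sided permutation p was 0.2056. With normexp background correction, which lifts dim values, the difference was -1.52, and the SD over the tumours was 2.48 in place of 3.96. The 3 FAKi values at background enter both. Of the 6 FAKi tumours, 4 lay below the vehicle mean and 2 above it. Cfd averaged -0.27 ± 3.16 in FAKi tumours and 1.76 ± 3.29 in vehicle tumours, a difference of -2.03 (SE 1.61). Retn averaged -2.49 ± 2.39 in FAKi tumours and -0.84 ± 3.12 in vehicle tumours, a difference of -1.65 (SE 1.39). Leaving out 1 tumour gave differences of -3.98 to -2.14 for Adipoq, -3.03 to -1.23 for Cfd and -2.53 to -0.90 for Retn. Cfd was nearest to 0 without FAKi 4 and Retn without vehicle 4, and both were farthest from 0 without vehicle 1. Lep averaged 0.51 ± 0.39 in FAKi tumours and 0.57 ± 0.63 in vehicle tumours, a difference of -0.06 (SE 0.30). The differences of the secreted products thus ran from close to 0 to about 3 doublings, each less than 2 SE.

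The droplet genes had differences of -0.94 (SE 0.76) for Plin1, -0.63 (SE 0.65) for Plin4 and -0.52 (SE 0.56) for Cidec. They stayed below 0 with each tumour left out but moved far: to -0.51 for Plin1 and -0.17 for Cidec without vehicle 4, and to -0.32 for Plin4 without vehicle 3. Without vehicle 1 they were -1.55 for Plin1 and -1.15 for Plin4, and without vehicle 6 that of Cidec was -0.75. Plin1 averaged -3.87 ± 0.78 in FAKi tumours and -2.93 ± 1.96 in vehicle tumours. Fabp4 averaged 1.90 ± 0.81 in FAKi tumours and 2.14 ± 1.49 in vehicle tumours, a difference of -0.23 (SE 0.62). Pnpla2 differed by -0.14 (SE 0.28) and Lpl by -0.09 (SE 0.53). The adjusted p was 0.9994 for each of the 10 (limma), and the exact permutation p of single genes ran from 0.2056 to 0.8788, where this design allows a smallest p of 0.00216.

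The median difference of the 10 was -0.58, against 0.08 over all genes tested, and 10 of 10 were below 0, against 39.5% of all genes. These counts are descriptions, and they concern group means. The group medians of Cidec, Lep and Lpl were higher in FAKi than in vehicle tumours, and those of the other members were lower. Most of the 10 correlate with each other over the tumours, and most have vehicle 3 and vehicle 4 as their top pair, so the members are not separate readings of the groups.

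**Figure D4:**
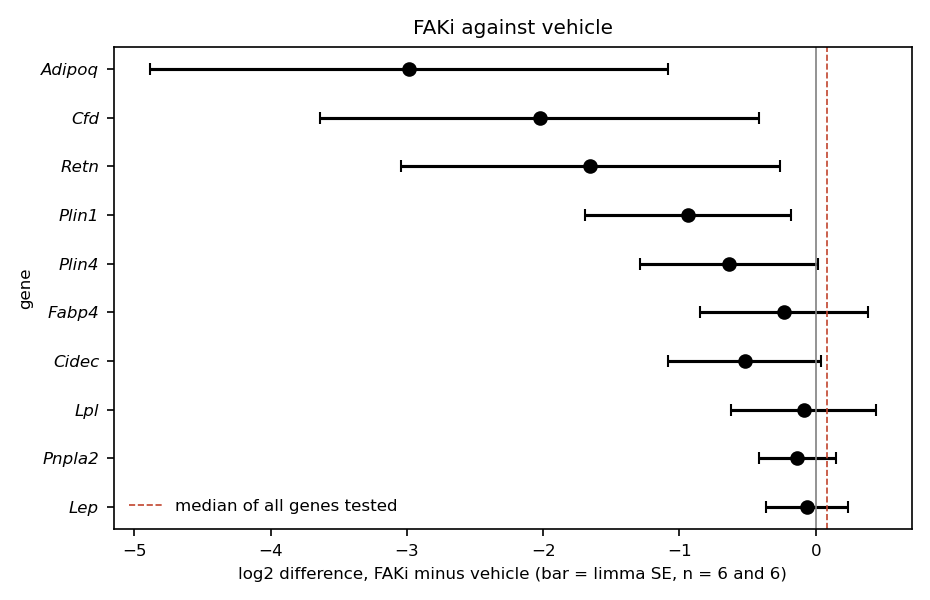
Difference of each of the 10 genes between FAKi and vehicle tumours (FAKi minus vehicle, log2), with the limma SE as bars (n = 6 and 6), and the median of all genes tested as a dashed line. The points run from -2.98 for Adipoq to -0.06 for Lep, and 0 of the 10 passed the test.

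The differences of the secreted products varied with the slide. A fixed block on slide compares the groups only on slides 1 and 4. With it the difference of Adipoq was -0.26, that of Cfd 0.01 and that of Retn -0.40. With slide as a random block, which uses all slides, the differences were -2.90 for Adipoq, -1.96 for Cfd and -1.61 for Retn. Within slide 1 (FAKi 5 against vehicle 3 and vehicle 5) the difference of Adipoq was -3.08, and within slide 4 (FAKi 1 against vehicle 2 and vehicle 6) the difference was 2.56, the other way. Cfd gave -1.79 within slide 1 and 1.81 within slide 4, and Retn gave -2.20 and 1.41. The 3 FAKi tumours with Adipoq at background (FAKi 2, FAKi 4 and FAKi 6) were on slides that held no vehicle tumour, and FAKi 3, on the same slide as FAKi 2 and FAKi 4, was the highest FAKi tumour. On those slides, slide and treatment cannot be told apart.

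The droplet genes stayed below 0 within both slides. Plin1 differed by -1.95 on slide 1 and by -0.31 on slide 4, and the fixed block on slide gave -1.13. Plin4 gave -2.41, -0.89 and -1.65 in the same order, and Cidec -0.41, -0.29 and -0.35. Fabp4 gave -0.29, 0.03 and -0.13. Lpl gave 0.79, -0.55 and 0.12, Lep 0.64, -0.78 and -0.07, and Pnpla2 -0.50, 0.52 and 0.01. Each within-slide value sets 1 FAKi tumour against 2 vehicle tumours and carries no test. The median over all genes was 0.27 within slide 1 and -0.27 within slide 4. The slide 4 values of Plin1 and Cidec were close to that -0.27, and that of Plin4 was lower.

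The other genes of fat cell biology were taken from 5 lists of 66 genes, of which 64 were tested, and 0 passed the adjusted threshold in either direction (limma). Of the 64, only Pde3b, the phosphodiesterase through which insulin restrains lipolysis, had an unadjusted p under 0.05. Pde3b averaged 0.92 ± 0.54 in FAKi tumours and 1.94 ± 0.81 in vehicle tumours, a difference of -1.02 (SE 0.38, adjusted p = 0.9994 by limma), with 6 of 6 FAKi tumours below the vehicle mean. It was lower in FAKi within slide 1 (-2.14) and within slide 4 (-0.56), but its r with Adipoq was 0.37.

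Among the fat cell's transcription factors, 5 of 10 had a difference above 0 and 5 below, with a median of -0.06. Zfp423, a zinc finger protein of preadipocytes, differed by -0.95 (SE 0.57), but its probe exceeded background clearly in only 4 FAKi and 5 vehicle tumours, and normexp gave -0.20. The difference of Cebpb, an early factor of fat cell formation, was 0.32 (SE 0.20). Nr1h3, a receptor for oxysterols, differed by 0.46 (SE 0.39). Klf15, a Krüppel-like factor, had the widest spread of the list, with an SD of 1.71 and vehicle 4 highest, but exceeded background clearly in only 3 FAKi and 4 vehicle tumours, so that background values enter that SD. Zfp423 had r = 0.80 with Adipoq, and 3 of the 10 had r over 0.5.

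Among the genes that make and store triglyceride, 11 of 21 were below 0, with a median of -0.06. Scd1, the desaturase of fatty acids, averaged -0.29 ± 0.97 in FAKi tumours and 1.06 ± 1.57 in vehicle tumours, a difference of -1.35 (SE 0.67), with vehicle 4 highest. Gpd1, which makes glycerol phosphate, differed by -0.70 (SE 0.34) and Acsl1, which activates fatty acids, by -0.51 (SE 0.28). Pck1, an enzyme of glyceroneogenesis, had the widest spread, with an SD of 2.48 that includes background values in 1 tumour of each group, and Cidea, a droplet protein of brown fat, had an SD of 1.47. Pck1 had r = 0.81 with Adipoq and Cidea -0.16.

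Of the 8 lipolysis genes 5 were below 0, with a median of -0.23. Mgll, the last lipase of the pathway, differed by -0.62 (SE 0.34) and Abhd5, the activator of the Pnpla2 lipase, by -0.45 (SE 0.25). The glycerol channel Aqp3 (SD 1.25) and the adrenergic receptor Adrb3 (SD 0.91) spread most over the tumours. Of the 10 genes of lipid and glucose uptake, 7 were below 0, with a median of -0.34. Cd36, a fatty acid receptor, averaged -3.46 ± 0.92 in FAKi tumours and -2.24 ± 1.40 in vehicle tumours, a difference of -1.22 (SE 0.61), and had r = 0.79 with Adipoq. Vldlr, a lipoprotein receptor, differed by -0.88 (SE 0.48) and Irs1, an adaptor of the insulin receptor, by -0.81 (SE 0.45).

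Of the 15 tested further products of fat cells 10 were below 0, with a median of -0.16. Car3 had a lowest, median and highest level of -5.96, -1.77 and 4.24 in FAKi tumours, against -1.30, 1.56 and 4.71 in vehicle tumours. Its difference of -3.20 had an SE of 1.54 and was -3.18 within slide 1 and 0.05 within slide 4. The mean of the Car3 probes gave a smaller difference of -1.83. Trarg1, a protein of glucose transporter traffic, differed by -1.16 (SE 0.55) and Sncg, a synuclein found in fat and nerve, by -1.09 (SE 0.55). Nnat, a small membrane protein, had an SD of 2.65 with a probe that exceeded background clearly in 4 FAKi and 5 vehicle tumours. The mean level of this list, centred per gene, ran from -0.71 to 0.51 in FAKi tumours and from -0.70 to 1.20 in vehicle tumours, with FAKi 3 and vehicle 4 highest of their groups, as for Adipoq.

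Markers of other cells that a piece can hold were set beside the fat genes. Endothelial markers moved with Adipoq: 9 of 10 had r over 0.5 with it, against 4.21% of all genes, and their median r was 0.59. Plvap and Emcn, endothelial surface proteins, had the highest mean signal of the list. The list's centred mean level ran from -0.93 to 0.19 in FAKi tumours and from -0.70 to 0.84 in vehicle tumours. Of the 10 endothelial markers, 9 had a difference below 0, against 39.5% of all genes. Before adjustment 2 had p under 0.05, the smallest 0.0092, against 4.79% of all genes, and 0 passed the adjusted threshold (limma). Macrophage markers moved with Adipoq too, with 8 of 10 over 0.5 and a median r of 0.54. The complement genes C1qa and C1qb had the highest mean signal of that list. Their list level ran from -0.69 to 0.43 in FAKi tumours and from -0.84 to 1.34 in vehicle tumours. Both lists were highest in vehicle 5, not in vehicle 3 or vehicle 4. The part of these cells in the levels of Fabp4 and Lpl was not tested.

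Fewer markers of the remaining lists moved with Adipoq. The number of markers with r over 0.5 was 0 of 6 for mesothelium (brightest Msln and Krt7), 0 of 7 for neutrophils (Ly6g and S100a9), 1 of 8 for lymph node and B cells (Glycam1 and Ccl21a) and 0 of 10 for tumour epithelium (Krt8 and Krt18). It was 2 of 8 for the stromal progenitors of fat and 1 of 9 for brown fat (Cox7a1 and Prdm16). Over all genes the share was 4.21%. The brightest stromal progenitor markers were Dcn (r = 0.64) and Ly6a (r = 0.10). The centred mean level of the stromal progenitor list had r = 0.56 with Adipoq. Of the acinar markers, led by Cela1 and Ctrb1, 0 of 10 had r over 0.5, and their median r was -0.32. All 10 tested had a difference above 0, opposite in sign to the 10 fat genes, with a median of 0.40. Over all genes 39.5% were below 0. Before adjustment 1 of the 10 had p under 0.05 (0.0076), against 4.79% of all genes, and 0 passed the adjusted threshold (limma). Amy2a5 and Ptf1a of this list were not tested. The acinar list level ran from 0.04 to 0.51 in FAKi tumours and from -0.68 to 0.50 in vehicle tumours.

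Skeletal muscle set one tumour apart. The level of the muscle list, led by Tnni2 and Tnnt3, was 3.96 in FAKi 3 and at most 0.57 in the other FAKi tumours, against -1.67 to 1.56 in vehicle tumours. FAKi 3 was also the FAKi tumour with the highest Adipoq, Cfd and Retn, and the brown fat list, which holds genes that muscle uses as well, was highest there with 1.46. The median r of the muscle markers with Adipoq was 0.12, and vehicle 3, second in Adipoq, had the lowest muscle level of all pieces. Whether muscle RNA adds to the Car3 level of 4.24 in FAKi 3 was not tested.

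**Figure D5:**
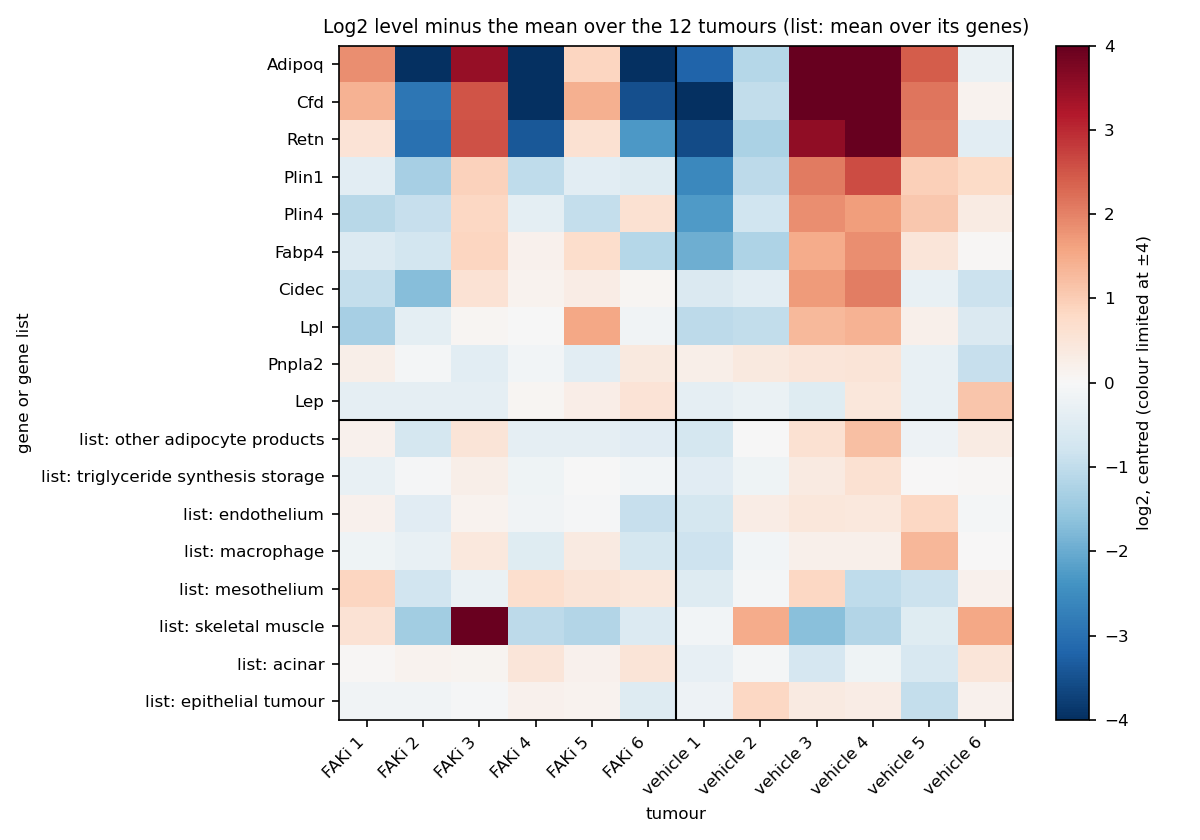
Levels in each tumour (columns, FAKi on the left and vehicle on the right) of the 10 genes (upper rows) and of 8 gene lists (lower rows, mean over the genes of a list), in log2, each minus its mean over the 12 tumours, with colour limited at 4 in either direction. The upper 3 rows span blue to red within both groups, vehicle 3 and vehicle 4 are red through the upper 8 rows, and the muscle list stands out in FAKi 3.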

How the data were processed

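Total RNA of 12 tumour pieces was measured on 12 one-colour arrays. The deposited scanner files hold red-channel intensity values, background-subtracted by Agilent Feature Extraction, per the file headers. The authors' second deposited table holds log2 values of 38569 probes; the submitters' processing notes name limma, and the table's normalisation and centring are not given in the sources used here. Its column medians were 10.71 to 10.9, and each of the 12 columns matched its own array best (r of at least 0.9965 across probes).

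Here each array's log2 processed signal was taken minus its 75th percentile, control and outlier spots (71 to 156 per array) were left out, and spots of 1 probe were averaged. Probes well above background on at least 6 of 12 arrays were kept (40459), and the brightest stood for its gene. Of the 56605 probes, 32989 were named by accession and 10228 by symbol through RefSeq. FAKi was compared with vehicle by limma 3.58.1 (R 4.3.3; Python 3.11.15 and scipy 1.17.1 for the rest) on all genes, with Benjamini-Hochberg adjustment at 0.05, and with the exact permutation test of single genes. The limma fit was tested on simulated data, made from shuffled residuals of these arrays with known shifts added to some genes. Labels do not say whether replicates are separate animals beyond their numbers, so p-values measure the spread between these samples, and the number of arrays limits the precision. Replicate numbers would count as pairs only if the deviations of every pair correlated above 0.1. This held for 4 of 6 pairs, with values of -0.117 and -0.0929 for replicates 2 and 5, so the samples were not treated as paired.

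The 10 genes and all lists were chosen with earlier results of these data known. Named are all 10 genes, the 3 genes of smallest p and the 2 of widest SD of each fat cell list, the 20 genes with the highest r with Adipoq, and the 2 brightest markers of each cell type list. Alternatives were quantile normalisation, normexp with offset 50, median centring, the deposited table, other filters, the mean of probes, slide and replicate blocks, and leaving out each array.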

Additional observations from a re-analysis of the deposited data

Results flagged for a closer look

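One value was flagged as a sample far from the others of its group, among 50 groups of 6 values checked, of which chance alone flags about 1 in 20. It is the skeletal muscle list level of FAKi 3, 3.9559, where the nearest FAKi tumour had 0.5656. The gap was 0.6349 of the group's range, above Dixon's 95% critical value for 6 samples. The same tumour had the highest Adipoq, Cfd and Retn of the FAKi group.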

How the results depend on the processing

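The count of members past the threshold was 0 under each alternative run, and the median member difference stayed below 0. It lay between -0.92 and -0.26 when 1 tumour was left out. It was -0.20 with slide as a fixed block, -0.59 with slide as a random block, -1.15 within slide 1 and -0.13 within slide 4. Within slide 4 the median over all genes was -0.27, lower than that of the members, and 5 of the 10 members were below 0. Over all genes, 0 passed, except 1 with normexp and 0 to 3 with 1 tumour left out, the 3 without FAKi 1. With the replicate block 0 genes passed (1667 at an unadjusted p under 0.05) and the smallest adjusted p of a member was 0.8289; by the rule used, the numbers did not pair the samples. Pairs of members past the threshold were 20 to 27 under other scalings and group centring, and 9 without the 2 farthest tumours; the cause was not tested. Leaving out 1 tumour gave Lep differences of -0.18 to 0.15, Fabp4 -0.65 to 0.12 and Lpl -0.40 to 0.18, each across 0. The mean of probes gave Lpl 0.0670. Slide as a fixed block gave Cfd 0.0100, Pnpla2 0.0085 and Lpl 0.12, and moved the median of all genes by -0.11. Within slide 1 the sign turned for Lep (0.64), Lpl (0.79) and Gpd1 (0.10). Within slide 4 it turned for Adipoq (2.56), Retn (1.41), Cfd (1.81), Fabp4 (0.0268), Pnpla2 (0.52), Zfp423 (0.71), Scd1 (1.11), Acsl1 (0.0404), Mgll (0.26), Abhd5 (0.0021) and Car3 (0.0512). Each within-slide value rests on 3 tumours, and Adipoq at background in 3 FAKi tumours limits how low its level can be read.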
